A study of Mus musculus with 15 samples.

Results

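Group 6 is a set of 3 libraries of MDA-MB-231 tumour cells, 1 each of strongly adherent, unsorted and weakly adherent origin, among 15 libraries in all. They were found by their titles, which begin with Group 6, and compared with the other 12, whose titles carry the numbers 4, 5, 7-8, 9 and 10. The set was selected on values of this same table: in earlier results on it, the E-cadherin gene CDH1, the vimentin gene VIM and the first principal component set these 3 libraries apart. In these 3 libraries genes of epithelial junctions, of lung epithelium and of the interferon response were lower than in the others, and some targets of hypoxia were higher. What follows describes how Group 6 differs and tests nothing about whether it does, except where the 3 libraries of Group 6 are compared with one another.

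Every library came from the same kind of model. MDA-MB-231, a line of human breast cancer cells without hormone receptors or amplified ERBB2 (triple-negative), had been given GFP and luciferase (GFP+ Luc+ in the labels) and was grown as primary tumours in mice of the strain labelled Nod/Skid. Weakly adherent cells are those sheared at 10 dyn/cm2 and strongly adherent cells those at 50 dyn/cm2, and unsorted cells had no shear. The 12 others comprised 3 strongly adherent, 4 unsorted and 5 weakly adherent libraries. All tumours were taken out and made into single cells, and bulk mRNA was sequenced and counted on human genes, although the labels give the organism as mouse. The labels do not say what the word Group and its number stand for, nor whether libraries of the same number share animals or a stock of cells. Group 6 is 1 such set against 5, so the number and anything that goes with it cannot be told apart, and any p-value given reflects sample-to-sample spread that could be partly technical. In bulk RNA, fewer cells of a type and less RNA per cell cannot be told apart either.

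Epithelial cells hold to their neighbours through adherens junctions, built on E-cadherin, and through tight junctions and desmosomes. The transcription factors GRHL2 and OVOL2 and the splicing regulators ESRP1 and ESRP2 maintain this state, while ZEB1, ZEB2, SNAI1, SNAI2 and TWIST1 repress it in epithelial to mesenchymal transition, in which vimentin filaments take the place of much of the keratin network. MDA-MB-231 is widely used as a line of the mesenchymal kind that lacks E-cadherin.

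Total counts were 35870922 to 40949820 in Group 6 and 30372619 to 45434799 over all 15 libraries, and 15403 genes with 99.98% of the counts were tested. Values below are CPM, a gene's share of the library's counts, scaled by the trimmed mean of M values. The first principal component of log2 CPM held 50.6% of the variance, with Group 6 at 101, 113 and 72.4 and the others between -63.1 and 7.26. A library outside Group 6, Group 5 strongly adherent, stood apart on the second component (11.01% of the variance) at 75.7, against 27.6 for the next, Group 6 unsorted. For some results that rest on Group 5 strongly adherent, values without it are given.

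The label of the cells was checked against genes known for MDA-MB-231. All 20 genes listed as expressed in the line were detected in every library, with a summed level of 18326 to 20003 CPM in Group 6 and 9725 to 17643 CPM in the others. The sum gives most weight to abundant genes. By mean log2 CPM of the list, Group 6 (8.67 to 8.73) lay within the range of the others (7.95 to 8.77). By the label defined below, 2 of the 20 were called higher and 1 lower, beside 10.4% and 15.9% of all genes. In Group 6 there were 613, 740.2 and 638 CPM of AXL and 857, 606 and 636 CPM of CAV1 in the strongly adherent, unsorted and weakly adherent library, the order used throughout. These values are given for presence only, not as a difference from the others. The neighbouring tumour suppressor genes CDKN2A and CDKN2B, which the line is known to have lost, had 0 counts in all 15 libraries, and MTAP beside them stood at 0, 0.127 and 0.0307 CPM in Group 6 and at 0.02496, 0.282 and 0.619 CPM (lowest, median and highest) in the 12 others. Among 18 genes listed as low or absent in the line, 15 were tested, and all 15 were lower in Group 6 than in the others on the fitted scale. Their summed level was 154 to 277 CPM in Group 6 and 447 to 1630 CPM in the others. CDH1, which the line is known to lack, was at 53.1 to 549 CPM in the others. These genes include some on which Group 6 was chosen, so they do not tell which libraries are the line.

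A gene is called here lower or higher when its adjusted p was under 0.05 in the fit of all 15 libraries with adhesion class as a covariate (edgeR quasi-likelihood test, Benjamini-Hochberg adjustment over all genes). Since Group 6 was chosen on this contrast, the call serves as a label for differences that are large beside the spread between libraries, and its p-values are not given. By this label 2451 genes (15.9%) were lower and 1599 (10.4%) were higher in Group 6. These shares are the background for each gene list below, where a count near them is no result about the list. The differences were uneven in size. With more than 3 counts in Group 6, 1308 lower genes differed at least 2-fold and 181 at least 16-fold, against 176 and 18 among the higher genes. Of those 18, 14 were in a list of striated muscle genes, left aside here, and the other 4, named after their values were seen, were MYOG and CSRP3, which also belong to muscle, PAEP and PTPRN2. The 3 Group 6 libraries lay wholly below the 12 others for 1579 genes (10.3%) and wholly above them for 867 genes (5.63%).

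Without Group 6 strongly adherent 1236 genes were called lower and 398 higher, the fewest of any library left out. Fold changes below are on the log2 scale, Group 6 minus the others, with their standard error, and over all tested genes their median was -0.01.

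Genes of epithelial junctions were lower in Group 6. CDH1, which encodes E-cadherin, stood at 0.267, 0.407 and 5.56 CPM in Group 6 and at 53.1, 141 and 549 CPM in the 12 others, a log2 fold change of -6.40 ± 1.07. The lowest of the 12 was Group 9 unsorted and the highest Group 5 strongly adherent, and even the lowest was far above the highest Group 6 library. P-cadherin, from CDH3, stood at 1.63, 2.29 and 9.59 CPM against 79.3, 169.5 and 399 CPM (-5.44 ± 0.76). EPCAM, an epithelial adhesion molecule, was counted at 26.8, 24.98 and 50.7 CPM against 115, 205 and 479 CPM. In both genes the groups did not overlap.

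Tight junction genes followed. CLDN1 stood at 4.25, 1.04 and 6.18 CPM against 17.7, 56.9 and 183 CPM, CLDN4 at 86.5, 81.8 and 157 CPM against 195, 241 and 362 CPM, and MARVELD3, a membrane protein of tight junctions, at 0, 0 and 0.123 CPM against 1.46, 3.19 and 11.9 CPM. LSR, which marks the corners where cells meet, was at 4.98, 0.789 and 17.3 CPM against 67.005, 111 and 234 CPM. The desmosome gene DSP, encoding desmoplakin, was at 203, 142 and 150.4 CPM against 203, 322 and 654 CPM, a log2 fold change of -1.09 ± 0.22, with the strongly adherent Group 6 library close to the lowest of the others. On the cytoplasmic side of the junctions, plakoglobin, from JUP, was lower at 216, 319 and 283 CPM against 356, 431 and 549 CPM (-0.69 ± 0.15). The alpha-catenin gene CTNNA1 had a log2 fold change of -0.05 ± 0.11, the beta-catenin gene CTNNB1 one of -0.35 ± 0.14, and TJP1, encoding the scaffold ZO-1, one of -0.10 ± 0.12, and none of these was called. Of 34 junction genes tested (37 listed), 26 were called lower and 0 higher, with 21 wholly below the others and a median of -1.33.

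**Figure D1:**
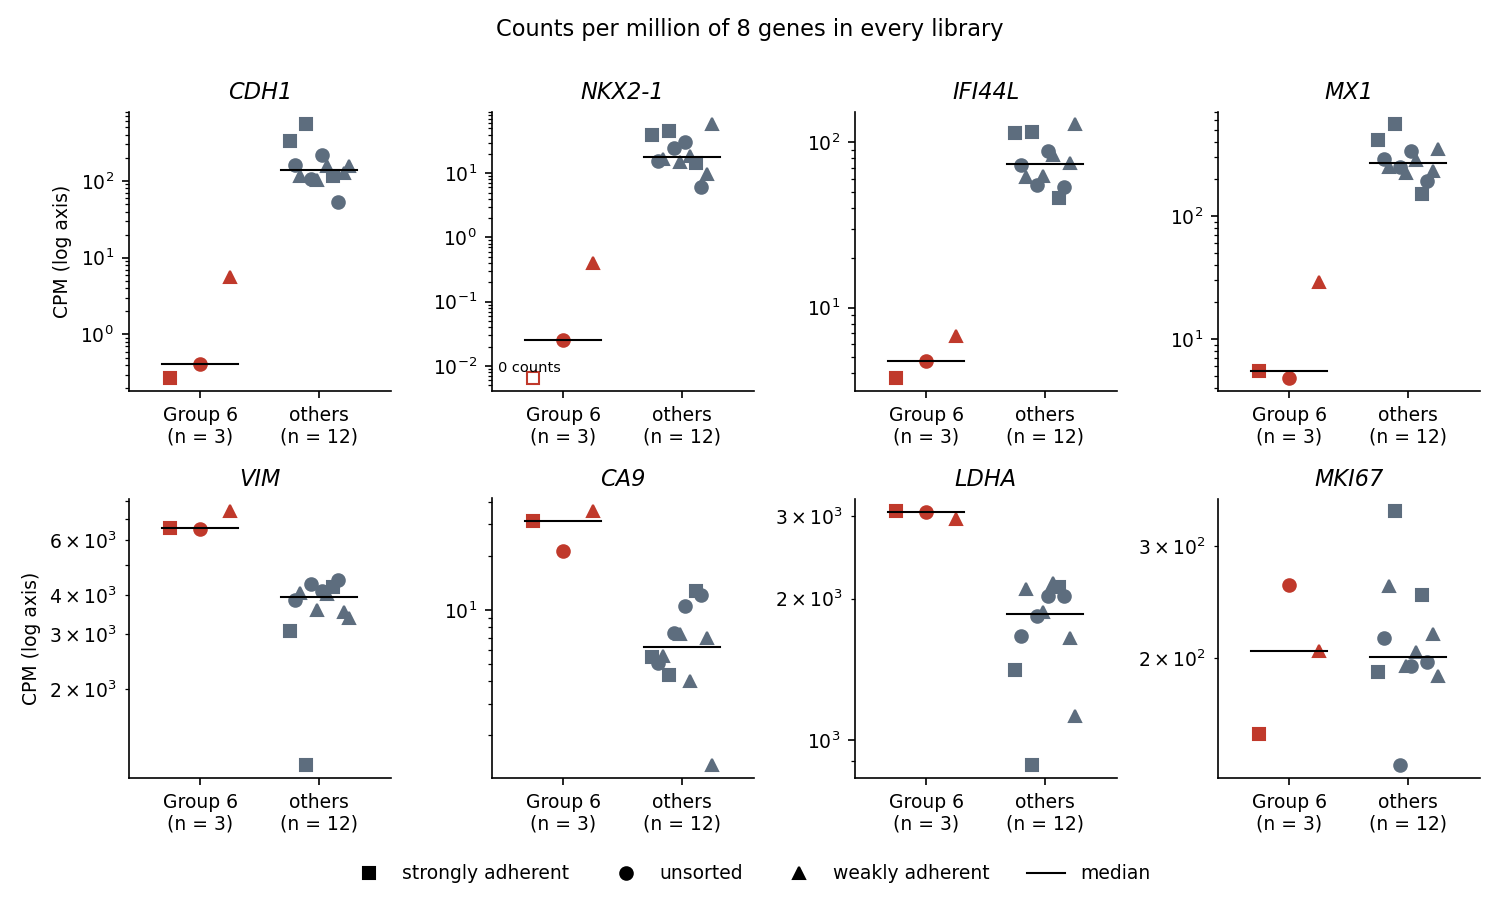
CPM (log axis) of 8 genes in each library. Red symbols are the 3 Group 6 libraries and grey symbols the 12 others, the symbol shape gives the adhesion class, black lines are medians, and an open symbol marks 0 counts. CDH1, NKX2-1, IFI44L and MX1 lie lower in all 3 Group 6 libraries than in any other, VIM, CA9 and LDHA lie higher, and MKI67 overlaps.

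Keratins, the filaments of epithelial cells, were lower to different degrees. The simple epithelial keratins KRT8 and KRT18 remained abundant, at 650.4, 539 and 700.3 CPM and at 284, 279.7 and 355 CPM in Group 6 against 939.9, 1446 and 2378 CPM and 438, 633 and 969.8 CPM in the others, with log2 fold changes of -1.24 ± 0.25 and -1.10 ± 0.23. Basal keratins differed more, with KRT5 at 0.0267, 0 and 0.184 CPM against 1.24, 2.53 and 12.1 CPM and KRT17 at 14.7, 7.77 and 24.7 CPM against 46.3, 66.8 and 202 CPM. KRT81 was not called, with a log2 fold change of 0.52 ± 0.28. Of 14 keratins tested, 12 were called lower and 12 did not overlap, with a median of -1.62.

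Regulators of the epithelial state were lower as well. GRHL2 stood at 0.0802, 0.229 and 0.4304 CPM against 10.7, 21.4 and 86.5 CPM (-6.75 ± 0.74), ESRP1 at 0.134, 0.102 and 1.44 CPM against 14.7, 42.7 and 143 CPM (-6.47 ± 0.91), and ESRP2 at 4.52, 1.4004 and 3.996 CPM against 11.8, 19.5 and 54.1 CPM (-2.93 ± 0.37). OVOL2 had 1 count over the 3 Group 6 libraries together and 1.11 to 6.43 CPM in the others, a ratio of 316 with a 95% counting interval of 56.7 to 12483. The basal epithelial factor TP63 was at 0.642, 0.968 and 0.984 CPM against 2.38, 15.1 and 59.9 CPM. Among other factors of the list, KLF5 (0.17 ± 0.18), SPDEF (-0.37 ± 0.18) and EHF (-0.40 ± 0.21) were not called. Of 20 regulators tested, 15 were called lower and 0 higher, with 11 wholly below the others and a median of -3.69.

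Genes of membrane proteases, their inhibitors and surface glycoproteins were lower too. The membrane serine protease matriptase, from ST14, stood at 3.91, 0.993 and 6.79 CPM against 33.5, 68.9 and 274 CPM, and its inhibitor gene SPINT1 at 5.67, 2.37 and 18.4 CPM against 84.7, 131 and 241 CPM. TMPRSS2, another membrane protease, was at 0.267, 0.509 and 1.88 CPM against 13.5, 27.5 and 46.9 CPM. Among 12 membrane proteases and inhibitors tested (19 listed), 10 were called lower, 6 without Group 6 strongly adherent, and the median was -3.72. Mucin genes included MUC16 at 0.0267, 0 and 0.523 CPM against 2.35, 10.4 and 77.6 CPM and MUC5B at 0, 0.204 and 1.199 CPM against 9.06, 25.3 and 95.6 CPM, whereas MUC1 (66.3, 12.3 and 60.7 CPM against 55.1, 75.6 and 155 CPM) overlapped and was not called. CEACAM1 had 0 counts in all 3 Group 6 libraries and was at least 33.1-fold lower, taking 3 counts over the 3 libraries as the limit. Of 13 surface glycoproteins tested, 10 were called lower, with a fitted median of -5.44 and of -5.12 when genes at 0 are put at that limit.

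Several genes best known from the lung epithelium were lower in Group 6. NKX2-1, the transcription factor that specifies lung and thyroid epithelium, stood at 0, 0.0255 and 0.3996 CPM against 6.19, 17.6 and 58.04 CPM (-7.53 ± 1.12). SFTPB, encoding surfactant protein B, was at 0.294, 0.229 and 0.4304 CPM against 8.35, 53.99 and 211 CPM, and the phosphate transporter of alveolar cells SLC34A2 at 0, 0.0764 and 0.123 CPM against 1.95, 12.9 and 58.2 CPM. LAMP3, a lamellar body protein, was at 0.187, 0.153 and 0.492 CPM against 1.83, 8.24 and 39.6 CPM. For these 4 genes every Group 6 library was below every other library. SFTPC, the gene most specific for alveolar type 2 cells, was not above 0.678 CPM in any library and was not tested, and SCGB1A1, the club cell marker, reached no more than 0.237 CPM. Of 16 lung genes tested (22 listed), 12 were called lower and 0 higher, with a fitted median of -6.32 and of -5.34 with genes at 0 put at the limit. The lower count was 4 with limma voom and 6 without Group 6 strongly adherent. By limma voom NKX2-1 (-8.36), SFTPB (-7.37) and SLC34A2 (-8.37) were not called, though their fold changes stayed as large. The list summed to 76.5 to 102 CPM in Group 6 and 159 to 696 CPM in the others, and ABCA3, a lipid transporter of lamellar bodies, was not called, at 19.8, 25.1 and 30.2 CPM against 14.1, 24.5 and 51.5 CPM.

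Genes of the breast lineage were mixed. GATA3, a factor of luminal breast cells, stood at 3.83, 3.34 and 2.86 CPM in Group 6 and at 3.99, 4.85 and 5.74 CPM in the others, and ESR1, the estrogen receptor, was at most 0.0802 CPM in Group 6 and 0.234 CPM elsewhere. The receptor ERBB3 was at 5.03, 2.01 and 8.73 CPM against 19.9, 36.9 and 99.3 CPM, ERBB2 at 78.8, 76.6 and 86.7 CPM against 88.8, 109.5 and 145 CPM, and EGFR overlapped with a log2 fold change of 0.20 ± 0.32. FOXC1, a factor of basal-like breast cancer, was higher at 72.2, 72.9 and 51.7 CPM against 29.9, 35.5 and 47.96 CPM (0.80 ± 0.12). Of 14 genes of this list tested, 7 were called lower (4 without Group 6 strongly adherent or without Group 6 unsorted) and 2 higher. ERBB2 was not called without Group 6 strongly adherent (-0.39) or unsorted (-0.41).

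Mesenchymal genes showed no difference of like size in either direction. VIM, which encodes vimentin, stood at 6560.3, 6494 and 7405 CPM in Group 6 and at 1142, 3950.5 and 4479.7 CPM in the others, a log2 fold change of 0.95 ± 0.23. The groups did not overlap, with Group 5 strongly adherent the lowest of the others at 1142 CPM and Group 4 strongly adherent next at 3065 CPM, and without Group 6 strongly adherent VIM was no longer called (0.82). MSN, encoding moesin, was at 2181, 2446 and 1906 CPM against 834, 1458 and 1874 CPM. The repressor ZEB1 was at 89.02, 122 and 73.2 CPM against 9.58, 51.8 and 70.5 CPM, above all others but not called, and ZEB2 (-0.47 ± 0.27), SNAI1 (0.37 ± 0.25) and SNAI2 (0.06 ± 0.17) overlapped. N-cadherin, from CDH2, was low throughout, at 0.214, 0.789 and 0.461 CPM against 0.755, 1.53 and 2.61 CPM. TWIST1 was lower, at 1.15, 1.4004 and 1.17 CPM against 2.004, 3.32 and 9.21 CPM, and so was SPARC, a secreted matrix protein, at 41.97, 56.3 and 41.4 CPM against 103, 166 and 215 CPM. Of 29 mesenchymal genes tested, 6 were called lower and 3 higher, beside 15.9% and 10.4% of all genes, with a median of 0.03. The higher count was 6 without Group 5 strongly adherent or without Group 9 strongly adherent, and without Group 6 strongly adherent 2 were lower and 0 higher. MSN (0.60) and TWIST1 (-1.53) were not called without that library, nor MSN without Group 6 unsorted (0.64).

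**Figure D2:**
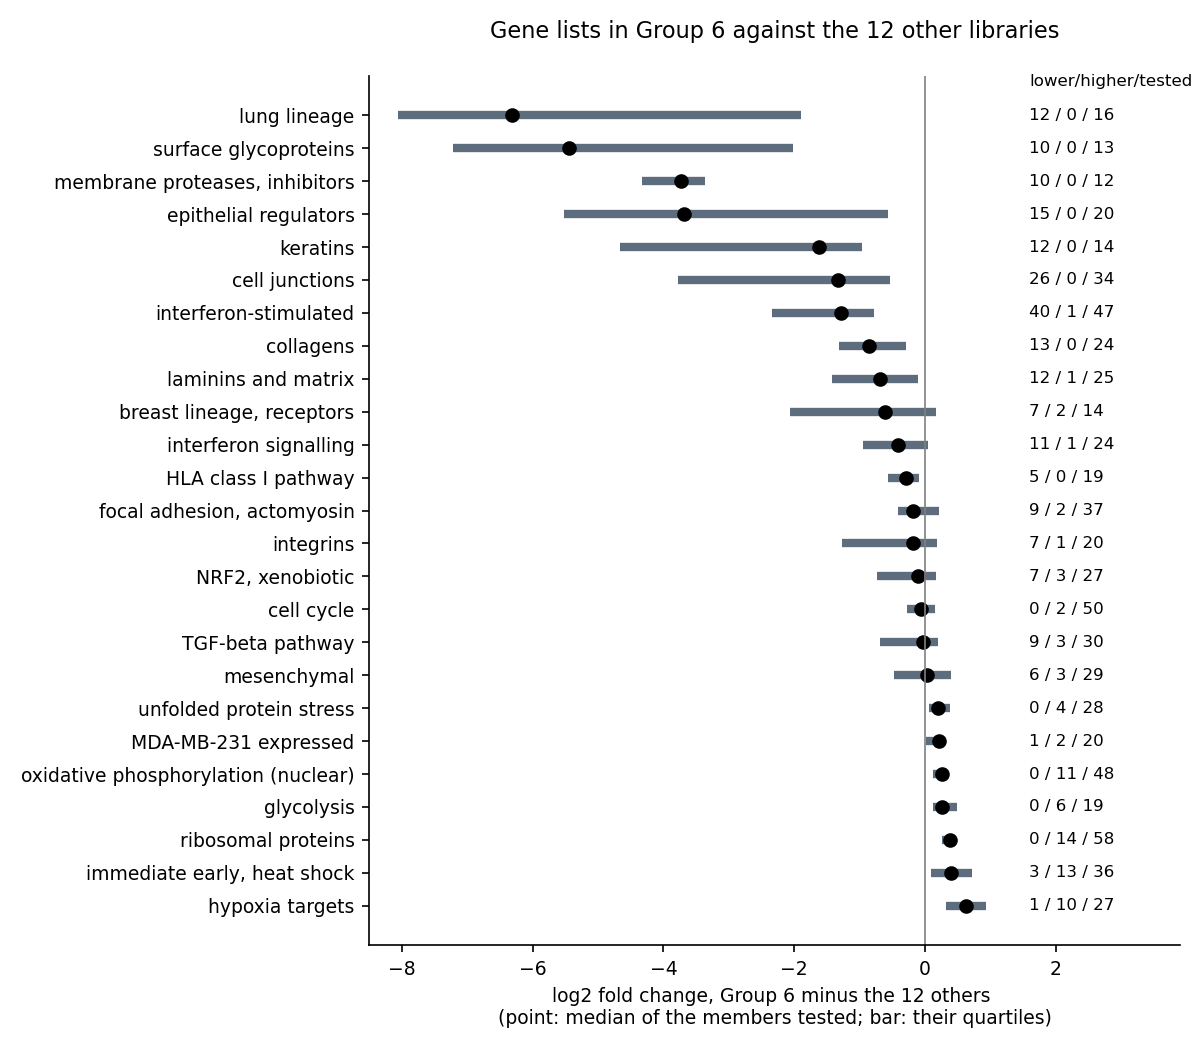
Log2 fold change of gene lists, Group 6 minus the 12 others. Points are medians and bars quartiles over the members tested, and the numbers give how many members were called lower and higher of how many tested. Epithelial, lung and interferon-stimulated lists lie left of 0, and hypoxia targets and glycolysis lie right of it by far smaller amounts.

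Interferon-stimulated genes were the other large group that was lower. Type I interferons act through JAK kinases on transcription factors that turn on many antiviral genes. MX1, an antiviral GTPase, stood at 5.51, 4.79 and 29.1 CPM against 151, 268 and 559 CPM (-4.60 ± 0.65). IFI44L was at 3.72, 4.74 and 6.702 CPM against 45.8, 74.2 and 129 CPM (-3.98 ± 0.38), and RSAD2, encoding viperin, at 0.348, 0.0509 and 1.11 CPM against 12.8, 24.2 and 44.1 CPM (-5.72 ± 0.65). CMPK2, next to RSAD2 in the genome, was at 0, 0.127 and 0.707 CPM against 8.5999, 18.9 and 37.6 CPM. ISG15, a ubiquitin-like modifier, was at 103, 89.1 and 188 CPM against 202, 429 and 671 CPM. In all 5 genes the highest Group 6 library was the weakly adherent one, and it was still below every other library.

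Other members differed less or not at all. IFIT1 was at 56.5, 54.7 and 103 CPM against 97.4, 209 and 312 CPM, a small overlap, IFIT2 had a log2 fold change of 0.02 ± 0.26, and IFITM2 was the 1 member called higher, at 99.1, 66.5 and 113 CPM against 40.98, 62.9 and 71.8 CPM. All 47 listed genes were tested, 40 were called lower (29 without Group 6 strongly adherent), 29 did not overlap and the median was -1.28. The summed level was 2356 to 3712 CPM in Group 6 and 4133 to 10009 CPM in the others. IFITM2 was not called without Group 6 strongly adherent (0.47) or weakly adherent (0.50).

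Of the signalling genes upstream, IRF9 stood at 31.8, 30.5 and 46.3 CPM against 61.5, 82.4 and 120.5 CPM and IRF7 at 37.3, 29.3 and 45.3 CPM against 53.4, 83.2 and 114 CPM. The sensor gene IFIH1, encoding MDA5, was at 12.1, 11.3 and 18.9 CPM against 25.5, 40.1 and 67.8 CPM. The receptor chain IFNAR2 was at 8.61, 11.1 and 9.499 CPM against 13.6, 15.6 and 22.9 CPM, while IFNAR1 (-0.06 ± 0.13) and the kinase gene JAK1 (-0.09 ± 0.11) overlapped and were not called. TYK2, the other kinase of the receptor, was called higher at 144, 124 and 125 CPM against 72.8, 103 and 119.7 CPM (0.37 ± 0.13). That call was lost without any 1 of the Group 6 libraries (0.24 without the strongly adherent one, 0.47 without the unsorted one, 0.43 without the weakly adherent one), with upper-quartile scaling (0.34), with no filter (0.38) and without any of 8 of the others (0.32 to 0.38). IFNB1, the ligand gene, had 0 counts in every library, as did IFNE. Of 24 signalling genes tested, 11 were called lower and 1 higher, with a median of -0.41.

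Genes of antigen presentation differed in part. HLA-B stood at 383, 349 and 582 CPM against 529, 737 and 953 CPM and HLA-C at 317, 283 and 441 CPM against 387, 521 and 619.6 CPM, both called lower with an overlap, and the peptide transporter gene TAP1 at 55.6, 54.7 and 56.8 CPM against 59.9, 81.8 and 106 CPM with none. B2M, the shared light chain, was not called (-0.26 ± 0.13), and neither was HLA-E (0.22 ± 0.13). Of 19 genes of the class I pathway, 5 were called lower and 0 higher, beside 15.9% and 10.4% of all genes. The lower count was 2 without Group 6 strongly adherent or unsorted and 8 without Group 6 weakly adherent. HLA-B and HLA-C were not called without Group 6 strongly adherent (-0.63 and -0.51) or unsorted (-0.51 and -0.36). Reads of HLA genes may be split among similar copies, which leaves single values uncertain.

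Secreted matrix and its receptors were lower in part. Fibrillar collagens stood at 132, 272 and 187 CPM for COL1A1 against 285, 569 and 1058 CPM, and at 17.7, 28.3 and 18.8 CPM for COL3A1 against 47.1, 77.4 and 119 CPM. COL17A1, the hemidesmosome collagen of epithelia, was at 7.14, 14.1 and 19.8 CPM against 32.9, 51.4 and 158 CPM. Basement membrane collagens differed less, with log2 fold changes of -0.29 ± 0.13 for COL4A1 and -0.14 ± 0.11 for COL4A2, neither called. Of 24 collagens tested, 13 were called lower and 0 higher, with a median of -0.86. The fibrillar collagens are also made by fibroblasts. Of 15 fibroblast markers tested, 11 had a negative fold change and 4 a positive one, with 6 called lower and 1 higher. Whether fibroblasts had a part in the collagen values was not tested.

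LAMA3, the laminin chain specific to epithelial basement membranes, stood at 44.96, 37.8 and 72.6 CPM against 285, 447 and 1075 CPM (-3.26 ± 0.37), whereas its partner LAMB3 (-0.34 ± 0.19) differed less and overlapped. Fibronectin, from FN1, was not called, at 7032, 2372 and 2612 CPM against 2842, 3933 and 5075 CPM, so that 1 Group 6 library was above all others and 2 below them. Among integrin subunits, ITGB6, the epithelial receptor chain that activates TGF-beta, was at 1.79, 1.76 and 4.37 CPM against 13.4, 23.6 and 53.4 CPM (-3.46 ± 0.48). ITGA5, the fibronectin receptor chain, was higher, at 765, 372 and 358 CPM against 107, 240.3 and 323 CPM (1.13 ± 0.31), and was not called without Group 6 strongly adherent (0.57). The abundant subunits ITGB1 (0.24 ± 0.16), ITGA3 (0.05 ± 0.14), ITGB4 (-0.24 ± 0.17) and ITGA6 (-0.06 ± 0.16) overlapped and were not called. Of 20 integrins tested, 7 were called lower (1 without Group 6 strongly adherent, 4 without Group 6 weakly adherent) and 1 higher. Among 37 focal adhesion and actomyosin genes 9 were lower (2 without Group 6 strongly adherent) and 2 higher (5 without Group 6 weakly adherent). Over all genes 15.9% were lower and 10.4% higher.

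Of 30 extracellular proteases and inhibitors tested, 8 were called lower (5 without Group 6 strongly adherent or unsorted) and 2 higher (4 without Group 6 unsorted). Over all genes 15.9% were lower and 10.4% higher. The collagenase MMP13 stood at 0.455, 0.637 and 2.74 CPM against 23.8, 67.5 and 312 CPM (-6.40 ± 1.12) and MMP10 at 0.294, 0.0255 and 1.29 CPM against 2.72, 15.4 and 77.1 CPM (-5.44 ± 1.33). MMP14, the membrane-type collagenase, overlapped at 1352, 2394 and 1915 CPM against 1072, 1690.4 and 2184 CPM. TIMP1, an inhibitor of these enzymes, was called higher at 855, 564 and 935 CPM against 202, 396 and 605 CPM, with an overlap. MMP10 was not called without Group 6 strongly adherent (-4.83) or by limma voom (-6.12), nor TIMP1 without Group 6 strongly adherent (0.70) or weakly adherent (0.84).

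Secreted signals that were lower included the chemokine CX3CL1, at 6.23, 2.88 and 8.33 CPM against 45.5, 91.3 and 232 CPM, the death ligand TNFSF10, at 17.3, 20.8 and 45.3 CPM against 76.9, 119 and 219 CPM, and TGFB2, at 31.002, 17.7 and 21.8 CPM against 43.1, 67.7 and 127 CPM. Among those higher were CXCL2, at 48.1, 29.1 and 33.4 CPM against 4.77, 8.58 and 27.2 CPM, and IL6, at 18.03, 5.58 and 10.2 CPM against 1.702, 2.97 and 6.499 CPM, with a small overlap. Of 23 cytokines and chemokines tested, 8 were called lower and 3 higher. The higher count was 1 without Group 5 strongly adherent or Group 9 strongly adherent and 0 without Group 6 strongly adherent. CXCL2 was not called with no filter (1.54), without any 1 of the Group 6 libraries (1.39 to 1.76) or without any of 8 of the others (1.42 to 1.55), nor IL6 without Group 6 strongly adherent (1.12).

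Higher levels in Group 6 were found among genes that respond to low oxygen. Under hypoxia the factor HIF-1 escapes hydroxylation by the EGLN enzymes and induces genes of glucose uptake, glycolysis and pH control. CA9, a carbonic anhydrase at the cell surface that is much used as a hypoxia marker, stood at 31.2, 21.3 and 35.4 CPM against 1.36, 6.23 and 12.7 CPM (2.14 ± 0.39). BNIP3, a mitophagy receptor, was at 381, 319.9 and 326 CPM against 63.3, 178 and 217 CPM (1.05 ± 0.25), and PDK1, which holds pyruvate back from mitochondria, at 48.4, 39.5 and 39.9 CPM against 10.6, 25.4 and 33.96 CPM (0.82 ± 0.25). For these 3 genes all Group 6 libraries were above all others. NDRG1 was also above all others, at 1832, 1773 and 1459 CPM against 104, 926 and 1296 CPM, but not called, and ANGPTL4 was called with 1 Group 6 library high and an overlap in the other 2, at 598, 85.2 and 116 CPM against 34.99, 84.7 and 125 CPM. Without Group 6 strongly adherent BNIP3 (0.87) and ANGPTL4 (0.34) were not called, and the call of ANGPTL4 was also lost without most of the other libraries.

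VEGFA, the angiogenic ligand, went the other way, at 281, 128 and 178 CPM against 191, 268 and 376 CPM (-0.53 ± 0.15), and SLC2A1, the glucose transporter, was not called (0.11 ± 0.19). HIF1A itself stood at 186, 176 and 146 CPM against 169.8, 248 and 452 CPM and EPAS1, encoding HIF-2alpha, at 60.8, 20.3 and 23.9 CPM against 33.6, 57.8 and 161 CPM, both called lower. Of these 3 lower calls, VEGFA was lost without Group 6 unsorted (-0.32) or weakly adherent (-0.55), HIF1A without Group 6 strongly adherent (-0.60) or weakly adherent (-0.59), and EPAS1 without Group 6 unsorted (-1.03) or weakly adherent (-1.16). With no adhesion class in the fit VEGFA (-0.44) and EPAS1 (-1.01) were not called. Of 27 hypoxia targets tested, 10 were called higher and 1 lower, 10 lay wholly above the others and the median was 0.63. The higher count was 2 without Group 6 strongly adherent, with a median of 0.45, and 6 without Group 6 unsorted. Glycolytic genes included LDHA at 3069.8, 3051 and 2952 CPM against 882, 1849.6 and 2153 CPM (0.83 ± 0.20) and HK2 at 192, 152 and 147 CPM against 55.6, 102 and 141 CPM, while GAPDH (0.20 ± 0.14) and PKM (0.13 ± 0.12) were not called. Of 19 glycolytic genes, 6 were called higher and 0 lower, a count that was 0 without Group 6 strongly adherent and 2 without Group 6 weakly adherent. The lowest of the 12 others was Group 10 weakly adherent for CA9, ANGPTL4 and HK2 and Group 5 strongly adherent for BNIP3, PDK1, NDRG1 and LDHA. Without Group 5 strongly adherent 10 hypoxia targets and 5 glycolytic genes were called higher, and LDHA was not called without Group 6 strongly adherent (0.71).

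Of 36 stress and early response genes tested, 13 were called higher (4 without Group 6 strongly adherent) and 3 lower (0 without that library, 1 without Group 6 unsorted). Relative to the mean of the others, the mean log2 CPM of the list was 0.73, 0.28 and 0.36 in Group 6 and 0.43 to 0.57 in the 3 Group 4 libraries. HSPA1A, encoding an inducible HSP70, stood at 90.5, 38.5 and 58.5 CPM against 15.9, 21.2 and 31.1 CPM (1.44 ± 0.21), DNAJB1, its cochaperone, at 541, 433 and 339.7 CPM against 183, 257 and 327 CPM, and KLF6, an early zinc-finger factor, at 902, 699 and 463 CPM against 219.8, 334 and 437 CPM. HSPA1A and HSPA1B are near-identical copies, so their split is uncertain. The early factors FOS (0.46 ± 1.15) and EGR1 (0.64 ± 0.76) were not called, and BTG2 was lower at 0.588, 0.586 and 0.646 CPM against 1.02, 2.71 and 7.56 CPM. Without Group 6 strongly adherent DNAJB1 (0.55) and BTG2 (-2.27) were not called.

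Growth genes differed little. The proliferation marker MKI67 stood at 152, 261 and 205 CPM against 135, 201 and 341 CPM, and of 50 cell cycle genes 0 were called lower and 2 higher, CCND3 (0.42 ± 0.12) and AURKA (0.28 ± 0.08). Without Group 6 unsorted 4 were lower, without Group 6 weakly adherent 5 were lower, and without Group 5 strongly adherent 4 were higher. CCND3 was not called without Group 6 strongly adherent (0.18), nor AURKA without Group 6 unsorted (0.28) or weakly adherent (0.25). Of 58 ribosomal protein genes, 57 had a positive fold change and 14 were called higher, with a median of 0.38. That count was 1 without Group 6 strongly adherent, 2 without Group 6 weakly adherent and 35 without Group 6 unsorted. Of 48 nuclear genes of oxidative phosphorylation, 41 had a positive fold change and 11 were called higher, with a median of 0.26. Between 2 and 17 were called higher when 1 Group 6 library was left out. That count was 7 without Group 5 strongly adherent or Group 5 weakly adherent and 6 with upper-quartile scaling. Over all genes 10.4% were called higher. Ribosomal protein genes have many near-identical copies, so single values there are uncertain.

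Among the 12 genes with the most negative fold changes, no overlap and at least 10 CPM on average in the others were SPTSSB (-8.15 ± 1.44), ARHGEF16 (-7.91 ± 0.82), MYO3B (-7.68 ± 0.81) and GPR110 (-7.27 ± 1.41), besides genes given above. The same 12 held TESC, a calcium-binding protein, at 0, 0.0255 and 0.492 CPM against 13.3, 28.02 and 54.1 CPM (-7.45 ± 0.92), CACNG4, a calcium channel subunit, at 0, 0 and 0.584 CPM against 15.7, 25.1 and 46.8 CPM (-7.21 ± 0.73), and LAD1, encoding ladinin of the epithelial basement membrane, at 0.107, 0.0764 and 2.67 CPM against 44.7, 75.6 and 233 CPM (-6.60 ± 0.95). The prostaglandin transporter gene SLCO2A1 had 3 counts over the 3 Group 6 libraries and stood at 3.56, 10.1 and 21.998 CPM in the others.

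On the higher side, TERT, the catalytic subunit of telomerase, stood at 14.2, 12.3 and 15.8 CPM against 1.37, 2.998 and 7.28 CPM (2.24 ± 0.27). LTBP1, which holds latent TGF-beta in the matrix, was at 822, 957 and 641 CPM against 95.5, 238 and 427 CPM (1.69 ± 0.35), and AKR1C1, a steroid-reducing enzyme, at 65.5, 150.4 and 80.7 CPM against 3.405, 21.9 and 39.8 CPM (2.13 ± 0.48). AKR1C genes are close copies of each other, and AKR1C3 was higher too, at 69.2, 99.7 and 81.7 CPM against 18.03, 35.6 and 50.1 CPM. GYPC, encoding glycophorin C, was at 8.02, 20.6 and 6.52 CPM against 0.117, 1.74 and 3.104 CPM, the largest positive fold change (2.64 ± 0.55) among genes outside the muscle list that had no overlap and at least 10 CPM on average in Group 6.

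Genes of striated muscle, left aside above, moved with Group 6 in part. Their summed level was 392.5 to 1600 CPM in Group 6 and 164 to 4044 CPM in the others. Group 5 strongly adherent was highest, so the library richest in muscle transcripts was not in Group 6. Of 58 tested, 20 were called higher and 4 lower (0 lower without Group 6 strongly adherent). The higher count was 36 of 51 tested without Group 5 strongly adherent, and 1 without Group 6 unsorted or weakly adherent. It was 9 or 10 without any of Group 4, 5, 7-8 or 9 unsorted, 3 with DESeq2 and 4 with no adhesion class in the fit. Group 5 strongly adherent was also the highest of the 12 for 47 of the 71 genes that were at least 16-fold lower in Group 6 and at 10 CPM or more in the others. Fibroblast markers summed to 625 to 930 CPM in Group 6 and 813 to 1599 CPM in the others, and 6 of 15 tested were called lower and 1 higher. DCN, which defines fibroblasts, did not exceed 0.187 CPM in any library. Their part in the collagen values was not tested.

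Endothelial and pericyte markers summed to 389 to 400 CPM in Group 6 and 88.2 to 319 CPM in the others. That sum gives most weight to abundant members. By mean log2 CPM of the list, Group 6 (2.07 to 2.35) lay within the range of the others (1.45 to 2.76). Of 13 tested, 2 were called higher (5 without Group 9 strongly adherent), beside 10.4% of all genes, and 3 lower (1 without Group 6 strongly adherent or unsorted), beside 15.9%. CDH5, encoding VE-cadherin, was at 6.31, 6.87 and 10.6 CPM against 0.191, 1.05 and 5.23 CPM, but VWF did not exceed 0.501 CPM in any library. Myeloid and lymphoid markers summed to 123 to 206 CPM against 74.7 to 129 CPM, and of 7 tested 2 were called lower and 1 higher, with a median of -0.61. The 1 higher, the lysosomal gene CD68, common in macrophages, was at 176, 111 and 194 CPM against 53.2, 95.5 and 109.98 CPM. In each Group 6 library CD68 alone made up most of the summed level. TYROBP and S100A8 had 0 counts in every library, and PTPRC, encoding CD45, stood at 0.107, 0.204 and 0.3996 CPM against 0.584, 1.18 and 1.83 CPM. Adipose, nerve and blood markers summed to 28.3 to 55.3 CPM against 31.7 to 58.8 CPM. CD68 was not called without Group 6 strongly adherent (0.69), nor CDH5 without Group 6 weakly adherent (1.84). The part of these transcripts in the differences above was not tested, nor whether host cells were their source.

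**Figure D3:**
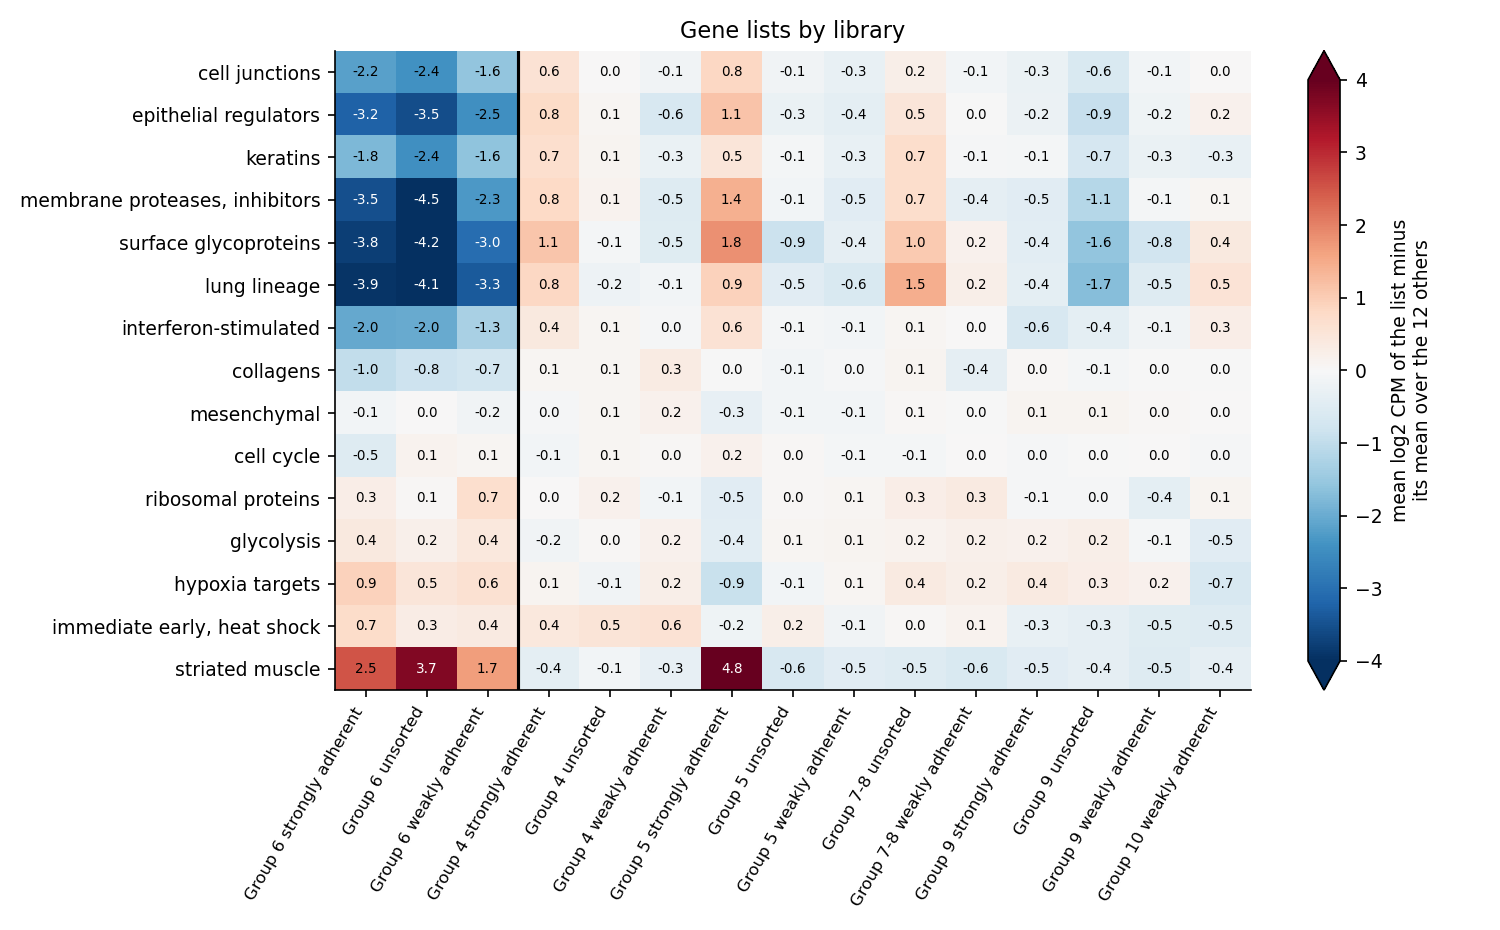
Mean log2 CPM of gene lists in each library, minus the mean of the same list over the 12 others, with Group 6 left of the black line. All 3 Group 6 libraries are low for the epithelial, lung and interferon-stimulated lists, Group 5 strongly adherent is high for them and for striated muscle, and the cell cycle list is low in Group 6 strongly adherent alone.

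The 3 Group 6 libraries were then compared with one another. Over all genes, pairs within Group 6 differed by a median of 0.298 to 0.313 on the log2 scale, against 0.175 to 0.379 for the 10 pairs of the others that share a number. The 2 largest of those held Group 5 strongly adherent, and the other 8 reached 0.259, so that each Group 6 pair lay further apart than these 8. Pairs of the others with different numbers differed by 0.174 to 0.401 (to 0.3505 without Group 5 strongly adherent). A Group 6 library and another differed by 0.296 to 0.562 (to 0.501 without it). No pair of the 15 libraries agreed within sampling noise, with a chi-square per degree of freedom of at least 18.8.

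The size of the difference was not equal. Of genes called lower, at least 16-fold on the fitted scale and at 10 CPM or more in the others, 71 were followed in each library. Their median level, as a percentage of the median of the 12 others, was 1.252% in Group 6 strongly adherent, 0.642% in Group 6 unsorted and 6.31% in Group 6 weakly adherent. The weakly adherent library was the highest of the 3 for 70 of the 71 genes, and it had 0 of them at 0 counts, against 10 and 13 in the strongly adherent and unsorted library. CDH1 is an example, at 5.56 CPM there against 0.267 and 0.407 CPM. These genes also differed among the 12, with Group 9 unsorted lowest for 53 of the 71.

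**Figure D4:**
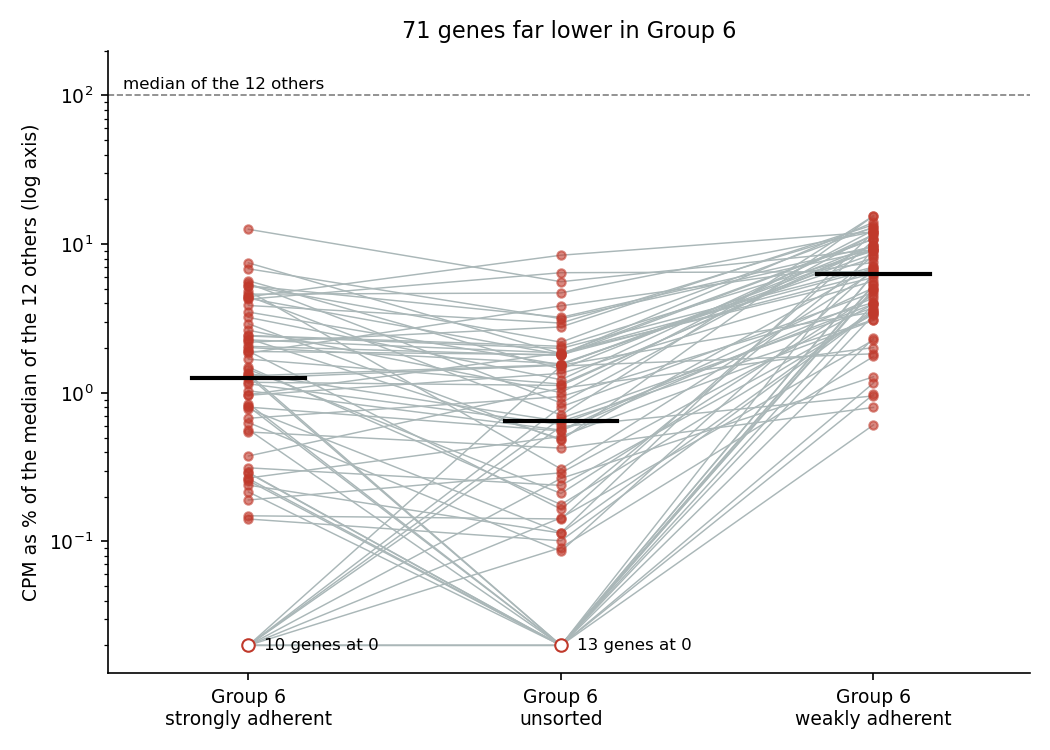
CPM of 71 genes in each Group 6 library, as a percentage of the gene's median over the 12 others (log axis, lines join the same gene, black bars are medians, open symbols mark 0 counts). Medians are 1.252%, 0.642% and 6.31%, and the weakly adherent library lies highest.

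By list, the mean log2 CPM of the junction genes relative to that of the others was -2.18, -2.42 and -1.57 in the strongly adherent, unsorted and weakly adherent Group 6 library. For interferon-stimulated genes it was -2.03, -2.01 and -1.30, so that in both lists the weakly adherent library was closest to the others. For 63 genes called at least 2-fold higher at 10 CPM or more, the median ratio to the median of the others was 2.93, 2.30 and 2.12, and single genes ran from 0.0887 to 27.3 in the unsorted library alone. The cell cycle list stood at -0.52 in Group 6 strongly adherent, under all 12 others, and at 0.13 and 0.07 in the unsorted and weakly adherent library, within their range of -0.11 to 0.16. PCNA, the replication clamp, was at 68.6, 134 and 147 CPM against 95.6, 109 and 143 CPM.

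Whether the Group 6 difference varied with adhesion class was tested with an interaction term, in which each Group 6 library is alone in its class and the spread comes from the 12 others. With 1 Group 6 library per class, a gene that did not pass is not shown to agree between the 3 libraries. At an adjusted p under 0.05 (edgeR quasi-likelihood F test, Benjamini-Hochberg adjustment), 9 of 15403 genes (0.0584%) varied, and 1714 had an unadjusted p under 0.05. SEL1L3 stood at 0.936, 0.356 and 8.82 CPM in Group 6 and at 22.3, 32.5 and 54.9 CPM in the others, less reduced in the weakly adherent library (adjusted p = 0.0236). FKBP5, a cochaperone of steroid receptors, was at 164, 48.4 and 31.8 CPM against 26.9, 34.01 and 44.1 CPM, highest by far in the strongly adherent library (adjusted p = 0.0486). FSIP2 was at 5.11, 0.0509 and 3.14 CPM against 3.01, 4.63 and 8.01 CPM, low in the unsorted library alone (adjusted p = 0.0486). CDH1 did not pass this test (adjusted p = 0.3198). The count of 9 depended on single libraries. It was 0 without any of 7 of the 12 other libraries and 35 without Group 9 strongly adherent, and 309 genes passed by DESeq2's likelihood ratio test.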

How the data were processed

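The authors deposited 1 table of raw counts per human gene and 1 of log2 values, each with a column for all 15 libraries and 0 columns of any other sample. Per the labels' protocols, stranded mRNA libraries (TruSeq) were sequenced as 50 bp single reads. Tools named in the submitters' processing notes, without versions, are HTSeq, STAR, cutadapt, FastQC and DESeq2, with the genome build hg19. For strand in counting and for the handling of mouse reads, the sources used here give nothing. The deposited log2 values equal log2(count / size factor + 1) to within 5.15e-14. They served only an alternative fit.

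The fits used edgeR 4.0.16 under R 4.3.3 (filterByExpr, trimmed mean of M values scaling, quasi-likelihood test), with Group 6 and adhesion class in the model, and Benjamini-Hochberg adjustment over 15403 of 25382 genes. The biological coefficient of variation was 24.97%. CPM are scaled to library size, with a prior count of 2 for log2 CPM. Whether the Group 6 difference varied with adhesion class was tested with an interaction term. The fits were tested on simulated data. DESeq2 1.42.0, limma 3.58.1 (voom, trend), other scalings and filters, each library left out and the title number as a block were alternatives.

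The members and the 44 gene lists were chosen with earlier results of these data known. Named genes are CDH1, VIM, CA9, IFI44L, NKX2-1, CDKN2A, CDKN2B and MTAP, the 12 largest fold changes in each direction (called, no overlap, mean of at least 10 CPM, outside the muscle list), up to 4 called members per list and direction by level, defining regulators and receptors, and up to 6 genes of the interaction test. Other members are given as values and were chosen after these were seen. Depth limits genes with few counts: for 0 counts a limit of 3 counts over the 3 Group 6 libraries was used, and with 1 to 3 counts a 95% interval is given, both covering counting error only. Values of some list members are not reported here. A search of promoter sequences was not carried out, since no human sequence was used here.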

Additional observations from a re-analysis of the deposited data

Results flagged for a closer look

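For 9 genes the Group 6 difference varied between the 3 adhesion classes by the interaction test (edgeR quasi-likelihood F test, Benjamini-Hochberg adjusted p). SEL1L3 had an adjusted p of 0.0236, with log2 differences of -5.37, -6.23 and -1.70 within strongly adherent, unsorted and weakly adherent libraries. The other 8, ZG16B, DMTN, ARHGAP27, FSIP2, FKBP5, LINC01139, TNXB and PALM2, each had an adjusted p of 0.0486. In the unsorted Group 6 library ZG16B was at 1.02 CPM, DMTN at 1.45 CPM, FSIP2 at 0.0509 CPM, LINC01139 at 0.0509 CPM and TNXB at 5.37 CPM, each the lowest of the 3. PALM2 was highest there, at 12.6 CPM against 3.08 and 3.93 CPM. ARHGAP27 was highest in the strongly adherent library, at 158 CPM against 66.4 and 80.6 CPM. Each Group 6 library is the only one of its class, so these differences have no replicate of their own.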

How the results depend on the processing

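With each library left out in turn, genes lower in Group 6 numbered 1236 to 2651 and genes higher in Group 6 numbered 398 to 1892, and both lowest counts came without Group 6 strongly adherent. All other settings gave 2222 to 2751 lower and 1333 to 1795 higher genes. With the title number as a replicate block, 2222 genes were lower and 1596 higher. With Group 6 and adhesion class already in the fit, libraries of the same number had a consensus correlation of 0.00232, so the numbers were not taken to pair the samples. That value does not show that libraries of the same number are independent. Genes whose Group 6 difference varies with adhesion class numbered 9, 2 with DESeq2's size factors, 309 with DESeq2, and 0 to 35 with 1 of the 12 others left out (2 without Group 4 strongly adherent, 5 without Group 9 unsorted, 15 without Group 5 strongly adherent, 22 without Group 10 weakly adherent). The cause was not tested. Among unsorted libraries alone the log2 fold change turned for IFITM2 (-0.000787), ANGPTL4 (-0.13), MAGEA12 (-2.02) and MAGEB2 (-0.31), and among weakly adherent ones for AKR1B1 (0.012) and FKBP5 (-0.12). It also turned for ZG16B without Group 4 strongly adherent (0.033) or Group 6 unsorted (0.67), with -1.14 to 0.67 over the libraries left out, and for ARHGAP27 without Group 6 strongly adherent, with -0.25 to 0.50. Of the values of named genes under these settings, 5078 kept direction and call (or, untested within 1 adhesion class, stayed within the SD of the others), 471 lost the call and 8 gained it, while 252 values within 1 class moved by more than that SD. Many named genes were chosen because they were called in the main fit, so these counts support nothing. Genes outside the rule for named genes were not followed singly. With 3 Group 6 libraries, 160 genes called lower had 3 or fewer counts there, and their size is not resolved at this depth.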
